A study of Mus musculus with 9 samples.

Results

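The transcriptome of untreated BV2 cells was described from the 3 Control libraries of a series of 9 RNA sequencing libraries. BV2 is an immortalized line of mouse microglia, made by infecting brain macrophages with a retrovirus that carries oncogenes, v-myc among them, so all groups are models from the same transformed line. The Control libraries carry the genotype wildtype and no agent in the treatment label. The other libraries are 3 of the same wildtype line given lipopolysaccharide (LPS), a component of the bacterial outer membrane, and 3 given LPS together with a treatment named Pilo. The sources used here give neither the meaning of Pilo nor any dose or duration. The members are all 55906 entries of the deposited table, ranked by their mean over the 3 Control libraries. Levels are in TPM, an abundance divided by transcript length and scaled so that each library has the same total, so levels can be set side by side between genes and every value is a share of its library. An entry is called expressed here when it reached at least 1 TPM in each of the 3 Control libraries.

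Microglia are the macrophages of the brain. Like other macrophages they depend on the receptor for colony-stimulating factor and on the transcription factor PU.1, and they engulf debris, sense microbial products and release cytokines. In the healthy brain they hold a set of sensing genes, among them P2ry12, Tmem119, Cx3cr1 and Sall1, that signals from the surrounding tissue maintain. Around damage and amyloid they take up a lipid-handling and lysosomal set that includes Apoe, Trem2, Gpnmb and Lpl, and such genes are often high in cultured macrophages too.

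The 3 Control libraries held 10936, 10769 and 10875 entries at 1 TPM or more, and 10282 of the 55906 entries (18.4%) were expressed. Among protein-coding genes, 9367 of 21927 (42.7%) were expressed and 8629 were listed at 0 in all 3 libraries. Pearson's correlation of log2(TPM + 1) over the 10282 expressed entries was 0.979 between Control 1 and Control 2, 0.985 between Control 1 and Control 3, and 0.992 between Control 2 and Control 3. Control 1 therefore stood furthest from the other libraries, and its difference followed transcript length. Over 5528 genes averaging 10 TPM or more, the level in Control 1 divided by the mean of the other Control libraries had a median of 1.30 for the 625 genes with 8000 or more exonic bases and of 0.959 for the 181 genes with fewer than 1000. The same medians were 0.800 and 1.04 for Control 2. Values that rest on long transcripts carry this spread, and whether the length pattern contributes to any single difference was not tested. The median coefficient of variation over the Control libraries was 21.9% for the 4294 expressed entries with a mean of 1 to 10 TPM, 12.5% for the 4596 with 10 to 100, 8.15% for the 1221 with 100 to 1000 and 8.71% for the 171 above that. Means are given below with the SD over the 3 Control libraries (n = 3) unless another group is named.

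The most abundant transcripts of untreated BV2 cells include those for the iron store ferritin, ribosomal proteins, glycolytic enzymes and mitochondrially encoded proteins. The secreted factors Mif and Lgals1 were also among the 30 leading entries. Ftl1, the ferritin light chain, was at 33385, 32228 and 33374 TPM in Control 1, 2 and 3, a mean of 32996 ± 665 TPM and 3.30% of all signal. Fth1, the ferritin heavy chain, was second at 16856, 12797 and 14115 TPM. The light chain exceeded the heavy chain in all 3 libraries. The glycolytic enzyme gene Gapdh ranked 5 at 12414 ± 182 TPM and Eno1, another enzyme of that pathway, ranked 20 at 5029 ± 113 TPM. Mif, a cytokine that macrophages store and secrete, ranked 16 at 5983, 5762 and 5795 TPM, and it was the most abundant cytokine gene in each library. Lgals1, a secreted sugar-binding protein, ranked 22 but was lower in Control 1 (3600 TPM) than in Control 2 (5381 TPM) and Control 3 (4937 TPM). The metal-binding protein gene Mt1 was at 4002 ± 418 TPM and the actin gene Actb at 3959 ± 610 TPM, at ranks 29 and 30. Of the 30 leading entries, 14 were cytosolic ribosomal protein genes, led by Rplp1 at 12550 ± 782 TPM and Rps14 at 7985 ± 870 TPM. The rest of the 30 included the translation factors Eef1a1 (5854 ± 742 TPM) and Eif5a (4525 ± 114 TPM) and the actin-binding protein gene Pfn1 (4023 ± 176 TPM). The 100 most abundant entries held 40.1% ± 0.445 of the signal, and 179 entries held 50% of it.

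**Figure D1:**
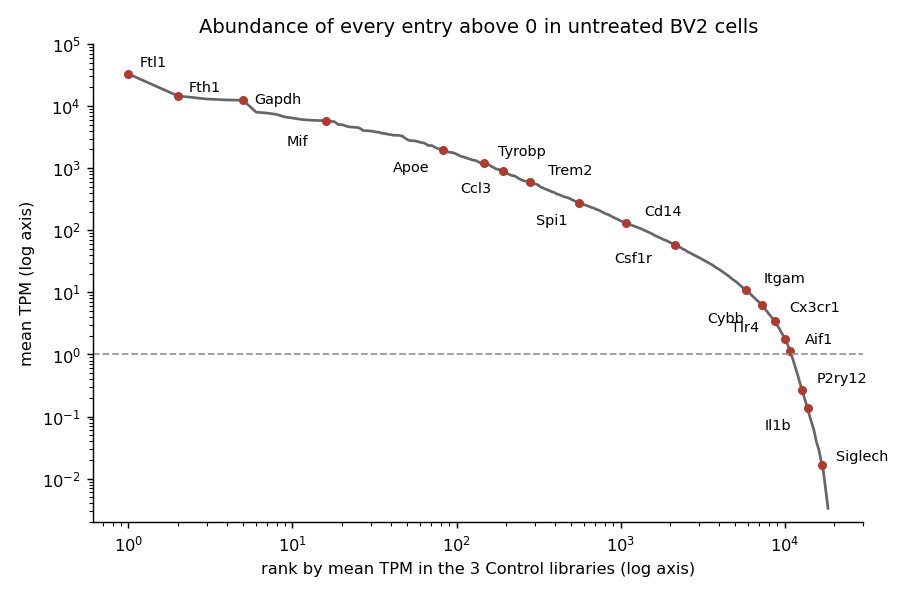
Mean TPM over the 3 Control libraries against rank, both on log axes, for every entry with a mean above 0. Labelled points mark genes named in the text, the dashed line is 1 TPM, and the curve starts at Ftl1 at 32996 TPM and passes Itgam at 10.9 TPM and Siglech at 0.0167 TPM.

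Ribosomal protein genes were the largest named class. Their 86 entries, of which 83 were expressed, took 19.8%, 22% and 21.3% of the signal in the 3 Control libraries, lowest in Control 1. The ferritin pair took 4.76% ± 0.261, and 16 entries of 15 glycolysis genes took 3.20% ± 0.115, among them Aldoa (3489 ± 187 TPM), Ldha (3383 ± 293 TPM) and Pkm (3316 ± 263 TPM). The 12 lysosomal cathepsin, legumain and cystatin genes took 0.918% ± 0.0219. The 13 mitochondrially encoded protein genes took 2.74%, 2.38% and 1.81%, and most of the change came with mt-Atp8, a short subunit gene of the ATP synthase, at 16751, 13078 and 9209 TPM. This gene overlaps its neighbour mt-Atp6, which was at 244, 353 and 171 TPM, so the division of reads between the pair is uncertain. Annotated pseudogenes took 6.75% ± 0.203 of the signal through 227 expressed entries of 13494. Among the 10 leading entries with a pseudogene or predicted-gene symbol, Gm10443 (6157 ± 787 TPM), Gm11808 (5049 ± 516 TPM), Gm28437 (4544 ± 1236 TPM), Gm10275 (3576 ± 119.8 TPM) and Gm10925 (3455 ± 652 TPM) were the most abundant. How reads with several matches were shared out is not given in the sources used here, so these levels and those of the genes they resemble are uncertain. A further 3.74% ± 0.802 fell on 492 assembled transcripts without a gene name.

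**Figure D2:**
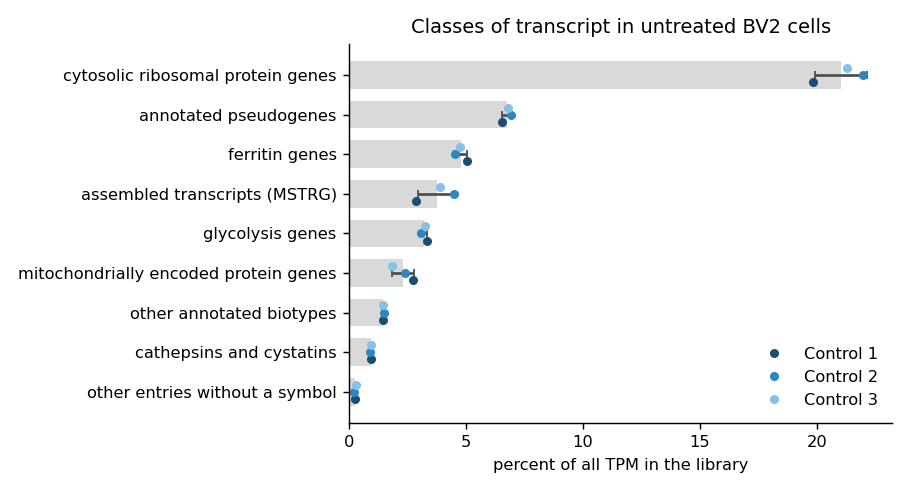
Share of all TPM held by each class of transcript, in percent, leaving out the 55.6% of other protein-coding genes. Bars are means of the 3 Control libraries, error bars are 1 SD and points are single libraries; ribosomal protein genes lead at 21.0% and Control 1 is lowest there.

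Genes shared by all myeloid cells were broadly present in untreated BV2 cells. Of 20 pan-myeloid identity genes, 19 were expressed, with a median level of 71.2 TPM. The highest were Tyrobp, the signalling adaptor of Trem2, at 1296, 1144 and 1135 TPM, the lysosomal glycoprotein gene Cd68 at 1216, 1102 and 1219 TPM, and the actin regulator Coro1a at 1084, 1084 and 1151 TPM. Fcer1g, the adaptor of Fc receptors, followed at 749 ± 103 TPM and the lysosomal membrane protein gene Laptm5 at 588 ± 41.7 TPM. The surface markers used to sort microglia were much lower, with Ptprc (CD45) at 15.4, 9.42 and 10.4 TPM and Itgam (CD11b) at 14.2, 8.40 and 10.1 TPM, and for both genes Control 1 was the highest library. Adgre1, which encodes F4/80, was at 19.2 ± 4.87 TPM. Aif1, which encodes the microglial stain IBA1, was the lowest of the 20 at 1.36, 0.890 and 1.15 TPM and missed the expressed level through Control 2. Csf1r, the receptor whose ligand keeps microglia alive, was at 63.4, 51.0 and 60.4 TPM in the 3 libraries.

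PU.1, which Spi1 encodes, binds purine-rich stretches such as GAGGAA near the start of many myeloid genes, and Spi1 itself was steady at 275, 274 and 278 TPM. RefSeq promoter windows of build GRCm38.p6 were at hand for 14 of the 20 pan-myeloid genes, and the 250 bases before each start were searched for GAGGAA on both strands (TTCCTC on the reverse). The motif stood before at least 1 start of 8 of the 14 genes (57.1%), against 25.9% of all 27025 genes with a window and 23.3% of all 32851 windows. In the disease-associated and homeostatic microglial lists described below it stood before 8 of 20 genes (40.0%) and 6 of 18 (33.3%). Among protein-coding genes listed at 0 in Control the share was 23.9%. The pan-myeloid share rests on 14 genes and a short motif, and its difference from the other shares was not tested. The longer form GAGGAAGT, which contains the shorter motif, stood before none of the 14 and before 2.79% of all genes. The 4 genes below are those of the 14 with GAGGAA or its reverse complement within 90 bases of a start, and they differ widely in level. Each line gives the 90 bases before the start, 5′ to 3′ on the strand of the gene, with the motif in capitals.
Itgam: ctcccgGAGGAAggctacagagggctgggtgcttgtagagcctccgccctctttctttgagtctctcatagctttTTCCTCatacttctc
Aif1: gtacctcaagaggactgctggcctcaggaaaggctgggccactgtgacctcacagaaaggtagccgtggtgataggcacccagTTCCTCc
Laptm5: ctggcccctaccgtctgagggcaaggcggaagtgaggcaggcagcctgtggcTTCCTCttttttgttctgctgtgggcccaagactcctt
Cd53: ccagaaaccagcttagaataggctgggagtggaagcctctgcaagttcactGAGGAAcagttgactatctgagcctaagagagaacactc
In GRCm38.p6 these stretches are chr7:128062550-128062639 (plus strand) for Itgam, chr17:35176053-35176142 (minus) for Aif1, chr4:130913226-130913315 (plus) for Laptm5 and chr3:106790150-106790239 (minus) for Cd53. Itgam carries the motif once on each strand. The resting levels of these 4 genes ran from 1.13 ± 0.235 TPM for Aif1 through 10.9 ± 3.00 for Itgam and 29.0 ± 0.852 for Cd53 to 588 ± 41.7 for Laptm5. Coro1a and Fcer1g, at 1107 ± 38.3 and 749 ± 103 TPM, had no match in theirs.

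Transcription factors of the myeloid lineage were mostly on. Of 26 listed, 21 were expressed. After Spi1, the highest were Cebpb (99.8 ± 17.9 TPM), Batf3 (46.7 ± 0.412 TPM), the retinoid receptor gene Rxra (44.9 ± 5.16 TPM), Irf8 (44.5 ± 2.52 TPM) and Mef2d (43.2 ± 3.55 TPM). Runx1 was at 11.4 ± 3.27 TPM and Cebpa at 9.45 ± 0.384 TPM. The 5 that were not expressed were Klf4 (0.640 TPM), Maf (0.417 TPM), Gfi1 (0.00667 TPM), Sall1 (0.00333 TPM) and Tfec, which was listed at 0. Sall1, a factor that sets microglia apart from other macrophages, had a value above 0 in Control 2 alone, at 0.01 TPM. Its relative Sall3 was at 2.93, 1.56 and 2.28 TPM.

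The homeostatic microglial genes divided within the list. Of 23, 12 were expressed, 10 stayed under 1 TPM in every Control library, and Tgfbr1 crossed 1 TPM in a single library. The protease inhibitor gene Cst3 was the highest at 1685, 1842 and 1768 TPM, and the engulfment receptor gene Mertk and the tetraspanin gene Cd81 (106 ± 16.1 TPM) also had means above 100 TPM. Mertk varied more than Cst3 and Cd81, at 186, 406 and 224 TPM. Those high members are also used by other macrophages. The genes that define resting microglia in tissue were low: the fractalkine receptor gene Cx3cr1 was at 4.57, 2.71 and 2.97 TPM, Tmem119 at 2.73, 2.15 and 2.16 TPM and Fcrls at 2.43, 1.55 and 1.37 TPM. P2ry12, the ADP receptor of resting microglia, was at 0.40, 0.160 and 0.230 TPM. Also under 1 TPM in every Control library were P2ry13 (0.430 TPM), Gpr34 (0.163 TPM), Olfml3 (0.09 TPM), Slc2a5 (0.05 TPM) and Siglech (0.0167 TPM). The general myeloid genes, Cst3 and Mertk thus matched a myeloid identity, which does not by itself tell microglia from other macrophages. The markers that separate microglia from other macrophages were near or under the expressed level.

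Disease-associated microglial genes, by contrast, were among the most abundant of untreated cells. Of 26, 24 were expressed, and the median of the list was 355 TPM against 1.78 TPM for the 23 homeostatic genes. This difference is a description of fixed lists whose members were not matched for function or length. Ctsd, an aspartyl protease of the lysosome, was at 2533, 2513 and 2631 TPM, and Apoe, the lipid carrier, at 2020, 1801 and 2066 TPM. Ctsz (1529 ± 90.9 TPM), the galectin gene Lgals3 (1462 ± 23.1 TPM) and Gpnmb (1357 ± 150 TPM), a membrane protein of lysosome-rich cells, were next. Trem2, the lipid-sensing receptor that works through Tyrobp, was at 593, 591 and 589 TPM and had the smallest spread for its level in the list. Spp1, which encodes osteopontin, was at 668 ± 88.0 TPM, the tetraspanin genes Cd63 and Cd9 at 876 ± 97.3 and 484 ± 43.8 TPM, and the lipase gene Lpl at 231, 146 and 169 TPM. The lower members were Itgax, which encodes CD11c, at 5.6 ± 0.794 TPM and Clec7a, a receptor of fungal glucan, at 2.20 ± 0.291 TPM. Axl at 0.870, 1.11 and 0.780 TPM and Ch25h at 0.0133 TPM were not expressed.

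**Figure D3:**
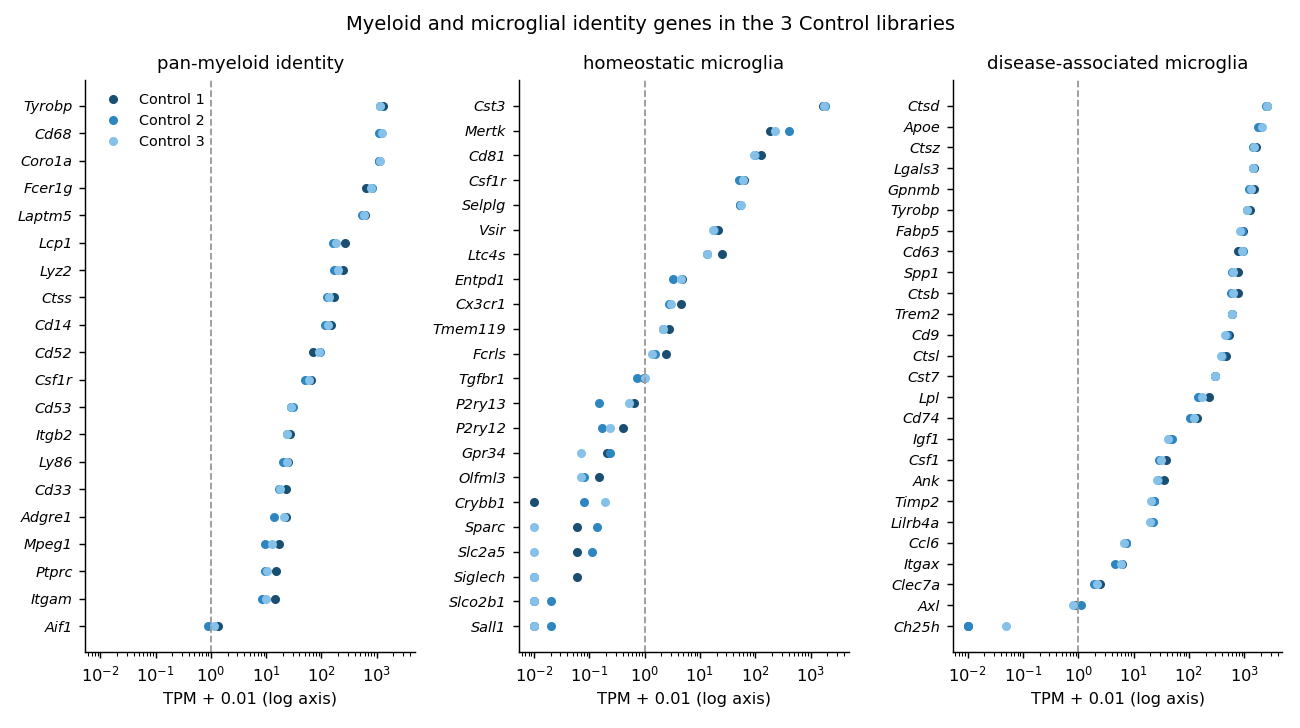
TPM + 0.01 on a log axis for pan-myeloid, homeostatic and disease-associated genes, 1 point per Control library, with the dashed line at 1. In the pan-myeloid and disease-associated panels 19 of 20 and 24 of 26 genes were expressed, whereas 12 of 23 were in the homeostatic list, of which the panel shows 22, and there points below 0.1 rest on values near 0.

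Markers of neighbouring myeloid cells were mostly low. Of 14 genes of border-associated macrophages, 5 were expressed: the platelet chemokine gene Pf4 (82.6 ± 4.49 TPM), the folate receptor gene Folr2 (16.6, 31.4 and 20.0 TPM), Stab1, Siglec1 and Cbr2. Mrc1, which encodes the mannose receptor, was at 0.0367 TPM, and Cd163, the haemoglobin scavenger receptor, was listed at 0. Of 15 monocyte and granulocyte genes, 3 were expressed, namely Hp (11.9 ± 2.18 TPM), F10 (7.15 ± 1.54 TPM) and Csf3r (2.78 ± 0.733 TPM), while Ly6c2, Ccr2, S100a9, Mpo and Ly6g were listed at 0. Of 48 markers of neurons, glia, vessels, fibroblasts and lymphocytes, 7 were expressed, 14 stayed under 1 TPM and 27 were listed at 0. The 7 were Tubb3 (164, 367 and 277 TPM), Aldoc (52.7 ± 6.45 TPM), Flt1 (16.6 ± 4.94 TPM), Lck (7.63 ± 1.33 TPM), Vwf (6.82 ± 0.725 TPM), Syn1 (5.39 ± 0.361 TPM) and Mbp (5.13 ± 1.33 TPM). Other markers of the same cells were listed at 0. Among them were Rbfox3, Snap25 and Map2 for neurons, Gfap and Aqp4 for astrocytes and Mog and Olig2 for oligodendrocytes. Cldn5 and Cdh5 for endothelium and Cd3e and Cd8a for lymphocytes were also listed at 0. Of 125 ribosomal protein and proteasome genes, 120 were expressed. The 3 of these under 0.5 TPM were Rpl10l, Psmb11 and Psma8, which are used in testis or thymus. Ribosomal protein genes are abundant, so this count cannot tell whether a rare marker listed at 0 is truly absent.

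Receptors for growth factors and cytokines of the myeloid lineage were present. Of 36 listed, 23 were expressed, led by the shared receptor chain gene Il2rg (72.5 ± 10.9 TPM), Csf1r (58.3 ± 6.47 TPM), the tumour necrosis factor receptor genes Tnfrsf1a (47.3 ± 0.738 TPM) and Tnfrsf1b (40.2 ± 3.22 TPM), Ifnar2 (43.5 ± 9.37 TPM) and Csf2ra (42.8 ± 5.31 TPM). Both chains of the receptors for type I interferon (Ifnar1 and Ifnar2), for interferon gamma (Ifngr1 and Ifngr2) and for interleukin 10 (Il10ra and Il10rb) were expressed. The interleukin 1 receptor gene Il1r1 was at 0.0467 TPM and its partner Il1rap at 0.350 TPM. For transforming growth factor beta, Tgfbr2 was at 12.6 ± 0.966 TPM and Tgfbr1 at 0.980, 0.720 and 1.02 TPM. Il21r was uneven, at 0.150, 7.23 and 3.27 TPM, and so was not called expressed.

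The receptor for LPS was present with an uneven set of parts. Cd14, the surface protein that hands LPS on, was at 149, 114 and 131 TPM and the adaptor gene Myd88 at 121, 98.7 and 112 TPM. Tlr4, the signalling receptor, was at 1.66, 1.52 and 2.08 TPM, and Ly96, which encodes its partner MD-2, at 2.36, 2.85 and 2.40 TPM. The lowest Control value of Cd14 was thus far above the highest of Tlr4 or Ly96. Of 28 genes for pattern recognition, 19 were expressed. Among the other toll-like receptors, Tlr7 (15.2 ± 1.48 TPM), Tlr2 (14.1 ± 3.57 TPM), Tlr13 (12.9 ± 2.22 TPM), Tlr9 (4.54 ± 0.372 TPM) and Tlr6 (2.69 ± 1.41 TPM) were expressed, Tlr1 and Tlr3 were above 1 TPM in some libraries, and Tlr5, Tlr8, Tlr11 and Tlr12 were listed at 0. Of the cytosolic sensors, the STING gene, matched under its older symbol Tmem173, was at 51.5 ± 1.75 TPM, Nlrp3 at 8.63 ± 2.34 TPM, Aim2 at 7.22 ± 0.131 TPM and Cgas at 5.15 ± 1.59 TPM. Ifih1, a sensor of double-stranded RNA, was at 0.02 TPM.

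Receptors for uptake were led by Trem2 and Mertk, and 15 of 24 listed were expressed. The scavenger and lipoprotein receptor genes Scarb1 (108 ± 3.70 TPM) and Lrp1 (107 ± 17.4 TPM) and the inhibitory receptor gene Sirpa (130 ± 18 TPM), which binds CD47, stood beside Fcgr3 (97.6 ± 3.92 TPM), Fcgr1 (31.1 ± 7.23 TPM) and Fcgr2b (15.4 ± 2.11 TPM), which bind antibodies. Of the 3 related engulfment kinases, Mertk was at 272 ± 118 TPM, Axl at 0.920 ± 0.171 TPM and Tyro3 at 0.00667 TPM. The scavenger receptor gene Cd36 was at 0.133 TPM, and Marco and Timd4 were listed at 0.

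Most chemoattractant, lipid, purine and neurotransmitter receptors fell below the expressed level. Of 39 chemotactic and lipid receptors, 12 were expressed: the fatty acid receptor gene Gpr84 (26.7 ± 2.42 TPM), the complement receptor genes C5ar1 (21.9, 14 and 23.7 TPM) and C3ar1 (7.16 ± 1.62 TPM), Hcar2 (13.7 ± 1.08 TPM), Gpr183 (12.6, 11.8 and 11.6 TPM), Cxcr4 (9.44, 6.50 and 6.21 TPM), S1pr2, Cx3cr1, Ptafr, S1pr1, Ptger1 and Ptger4. The chemokine receptor gene Ccr1 was at 0.480 TPM, and Ccr2 and Ccr7 were listed at 0. Of 19 purine receptors, 5 were expressed, namely the ATP-gated channel genes P2rx4 (19.4 ± 2.22 TPM) and P2rx7 (9.28 ± 1.67 TPM), the UDP receptor gene P2ry6 (13.8 ± 1.09 TPM), P2ry2 (7.98 ± 0.820 TPM) and Adora2b (1.87 ± 0.142 TPM). Of 32 neurotransmitter receptors, 2 were expressed, among them the histamine receptor gene Hrh1 (2.62, 2.50 and 3.38 TPM). The GABA receptor gene Gabbr1 was at 1.94 TPM in Control 1 and at 0.07 and 0.08 TPM in the other Control libraries.

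The title of the series names the M3 muscarinic acetylcholine receptor, which Chrm3 encodes. Chrm3 was listed at 0 in each Control library, at 0, 0.01 and 0 TPM in the LPS libraries and at 0.02, 0 and 0 TPM in the LPS+Pilo libraries. Of the other muscarinic genes, Chrm4 was at 0.200, 0.240 and 0.240 TPM in Control, and the remaining Chrm1, Chrm2 and Chrm5 held a 0 in each of the 9 libraries, as did the nicotinic receptor gene Chrna7. TPM hold no depth, so the level that these libraries could have detected cannot be given, and a listed 0 does not show that the receptor is absent.

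Secreted signals before stimulation were uneven in level. For the counts of cytokine genes, the share of all protein-coding genes that were expressed was 42.7%. Of 32 cytokine genes, 13 were expressed: after Mif came Tgfb1 (205, 193 and 227 TPM), Csf1 (38.9, 28.8 and 31.0 TPM), Tnfsf12 (16.0 ± 2.39 TPM), the interleukin 1 receptor antagonist gene Il1rn (13.2, 14.6 and 9.94 TPM), Tnf (11.1, 13.1 and 11.5 TPM) and Osm (10.4 ± 1.84 TPM). The inflammatory cytokine genes Il1b (0.137 TPM), Il1a (0.01 TPM) and Il6 (0.0167 TPM) were close to 0, and Il10, Il12a, Il12b, Csf2, Csf3 and Ifng were listed at 0. Csf1 and Il34, the ligands of Csf1r, were both expressed along with the receptor, Il34 at 3.71 ± 0.717 TPM.

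Chemokine genes were led by Ccl3 and Ccl4, which attract monocytes and lymphocytes. Ccl3 was at 889, 1006 and 780 TPM and Ccl4 at 252, 267 and 242 TPM, while Ccr1, which encodes a receptor for CCL3, was under 1 TPM. Cxcl14 (90.8, 94.6 and 90.7 TPM), Pf4 (82.6 ± 4.49 TPM) and the monocyte attractant gene Ccl2 (63.3, 73.8 and 71.4 TPM) followed. In all, 12 of 33 chemokine genes were expressed, and 15 were listed at 0, among them Cxcl1, Cxcl3, Cxcl12, Cxcl13, Ccl17 and Ccl22.

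Growth factors and matrix-associated proteins were led by Lgals1, Apoe and Lgals3, with 16 of 28 expressed. Spp1, the lysosomal precursors Grn (632 ± 49.8 TPM) and Psap (581 ± 51.2 TPM), Vegfb (73.5 ± 5.33 TPM) and Igf1 (44.0, 48.4 and 42.2 TPM) were also expressed, whereas Bdnf and Gas6, a ligand of Mertk, were listed at 0. Of 27 secreted proteases and inhibitors 14 were expressed, among them Ctsb (661 ± 108 TPM), Lyz2 (241, 165 and 202 TPM), Plau (112 ± 7.52 TPM) and Adam8 (88.6 ± 3.41 TPM). Mmp9, a gelatinase, was at 0.363 TPM. Complement genes were low, with 5 of 21 expressed. Properdin, encoded by Cfp, was at 29.2, 30.8 and 35.5 TPM. The chains of C1q, which are abundant in microglia of the brain, were at 0.970 ± 0.332 TPM (C1qa), 3.01 ± 0.387 TPM (C1qb) and 3.90 ± 0.325 TPM (C1qc), and C3 was at 2.79 ± 0.630 TPM.

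**Figure D4:**
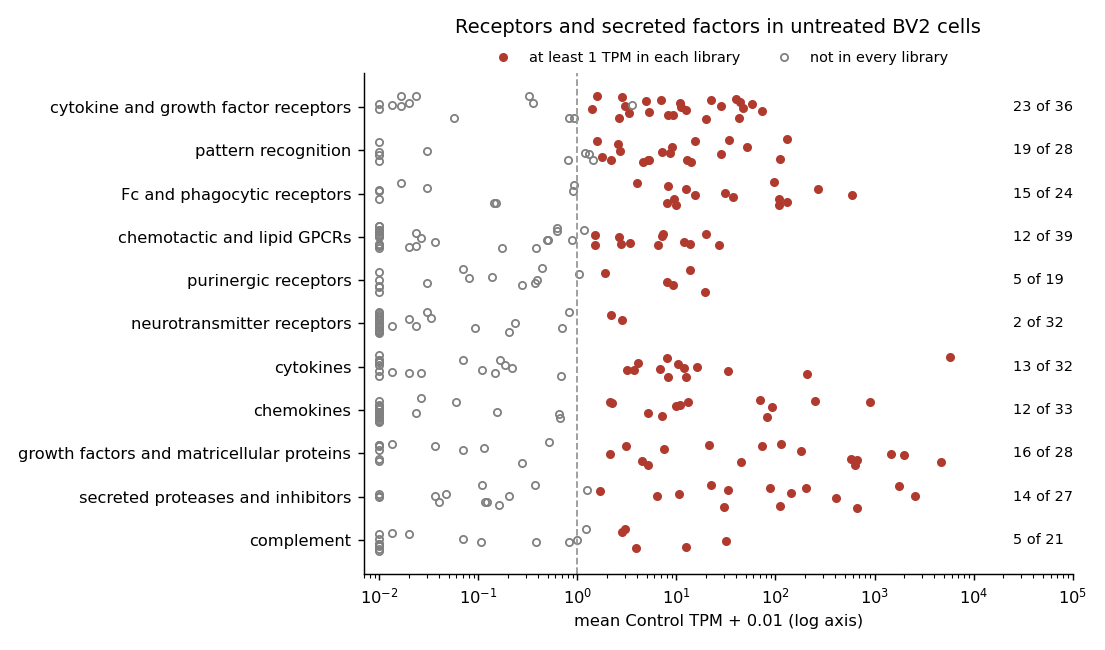
Mean Control TPM + 0.01 on a log axis for every member of 11 lists of receptors and secreted factors; filled points reached 1 TPM in each of the 3 Control libraries and the counts stand at the right. Chemokines and cytokines hold a few very high members, such as Mif at 5847 TPM and Ccl3 at 892 TPM, beside many at 0, and 2 of 32 neurotransmitter receptors are filled.

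The machinery for oxidants was present without that for nitric oxide. Cyba, the membrane subunit of the NADPH oxidase, was at 1591, 1865 and 1921 TPM, and Rac2 (249 ± 20.6 TPM), Ncf1 (117 ± 12.8 TPM) and Ncf4 (60.9 ± 3.42 TPM) were expressed, whereas the catalytic subunit gene Cybb was at 8.53, 4.07 and 6.38 TPM. Nos2 (0.07 TPM) and Arg1 (0.173 TPM), enzymes that compete for arginine, and Ido1, listed at 0, were not expressed. Acod1, which makes itaconate, was at 30.8, 13.6 and 19.1 TPM, and the haem oxygenase gene Hmox1 at 185 ± 5.08 TPM. Class I antigen presentation was on, with B2m at 944, 684 and 866 TPM and H2-D1 at 449 ± 15.2 TPM. Class II was not: H2-Aa, H2-Ab1 and H2-Eb1 were listed at 0 and their activator Ciita was at 0.00333 TPM, although Cd74, the invariant chain, was at 123 ± 19.2 TPM. Among inhibitory receptors 10 of 20 were expressed, and among costimulatory and adhesion genes 12 of 15, with Cd44 (41.5 ± 9.59 TPM) and Icam1 (27.1 ± 2.00 TPM) above Cd86 (6.75 ± 0.910 TPM) and Cd40 (2.53, 3.83 and 4.25 TPM).

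Proliferation genes were on. Of 26 cell cycle and growth genes, 24 were expressed, among them Cdk4 (442 ± 19.7 TPM), Mcm5 (282 ± 21.3 TPM), Pcna (351, 207 and 200 TPM), Cdk1 (172 ± 8.09 TPM), Ccnb1 (68.3 ± 4.62 TPM) and Mki67 (12.8 ± 1.05 TPM). Both Trp53 (332 ± 23.3 TPM) and Cdkn2a (215 ± 9.73 TPM), a locus that restrains proliferation, were expressed. Myc, the cellular counterpart of v-myc, was at 0.127 TPM. Reads of a viral copy may or may not be assigned to the mouse gene, so the Myc value says nothing of the viral gene.

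How the resting levels compared with those of the treated groups was examined last. The same 3 Control libraries enter both comparisons, so LPS against Control and LPS+Pilo against Control are given side by side. Of 11260 genes tested with limma on log2(TPM + 1), 874 passed at a Benjamini-Hochberg adjusted p under 0.05 in LPS (7.76%), 464 higher (4.12%) and 410 lower (3.64%). In LPS+Pilo 1143 passed (10.2%), 546 higher (4.85%) and 597 lower (5.30%). These counts rest on few libraries: without Control 3 they were 414 and 642, and leaving out Control 1 turned the balance toward higher, with 671 higher and 327 lower in LPS. Among the 100 most abundant entries of Control, 2 rose and 2 fell in LPS and 96 did not pass, with a median log2 difference of -0.13 against 0.07 over all genes tested. In LPS+Pilo 3 rose and 9 fell, with a median of -0.08 against 0.02.

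Fth1 rose from its Control values of 16856, 12797 and 14115 TPM to 27938, 27431 and 23691 TPM in LPS and 25345, 23805 and 26251 TPM in LPS+Pilo. The Control values did not overlap those of either treated group. The log2 differences were 0.86 (SE 0.13, adjusted p = 0.00309) and 0.79 (SE 0.13, adjusted p = 0.00400). With quantile normalization, which forces the most abundant values to be equal, neither passed (adjusted p = 0.498 and 0.222), and without the filter on low values LPS+Pilo missed the threshold (adjusted p = 0.0529). Ftl1 did not pass in either comparison, and in LPS+Pilo replicate 1, at 24671 TPM, it was below Fth1. The other gene of the 100 that rose in LPS was the actin-binding peptide gene Tmsb10 (log2 difference 0.44, SE 0.07, adjusted p = 0.00645), and it rose by 0.29 in LPS+Pilo (SE 0.07, adjusted p = 0.0370), a call that 11 of 16 other settings ended. Apoe fell from 2020, 1801 and 2066 TPM to 863, 932 and 871 TPM in LPS and to 863, 911 and 927 TPM in LPS+Pilo. All treated libraries lay below all Control libraries, with log2 differences of -1.14 (SE 0.08, adjusted p = 3.35e-05) and -1.12 (SE 0.08, adjusted p = 3.38e-05). Cst3 was the other abundant gene that fell in LPS, by 0.48 (SE 0.08, adjusted p = 0.00792), and it fell by 0.45 in LPS+Pilo (SE 0.08, adjusted p = 0.00836).

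Identity genes moved in both directions. Over all 11260 genes tested, 4.12% rose and 3.64% fell in LPS, and 4.85% rose and 5.30% fell in LPS+Pilo. Those shares are not limited to genes expressed in Control, as the list counts below are. Of the 19 pan-myeloid genes expressed in Control, 5 rose and 2 fell in LPS and 4 rose and 4 fell in LPS+Pilo. Itgam went from 14.2, 8.40 and 10.1 TPM to 42.5, 42.2 and 21.5 TPM in LPS and 32.8, 30.2 and 27.9 TPM in LPS+Pilo (log2 differences 1.58 and 1.42, SE 0.26 for each, adjusted p = 0.00608 and 0.00822). Its Control values did not overlap those of either treated group. Cd14 went from 131 ± 17.7 TPM to 323 ± 68.4 TPM in LPS (log2 difference 1.28, adjusted p = 0.000816) and 326 ± 8.12 TPM in LPS+Pilo (log2 difference 1.31, adjusted p = 0.000576). Tyrobp fell to 839 ± 35.6 and 691 ± 30.9 TPM and Laptm5 to 325 ± 26.4 and 299 ± 13.7 TPM, both called in both comparisons. Of the 24 disease-associated genes expressed in Control, 3 rose and 6 fell in LPS and 3 rose and 13 fell in LPS+Pilo. Trem2, from 593, 591 and 589 TPM, was at 304, 320 and 375 TPM in LPS and 226, 213 and 281 TPM in LPS+Pilo, with log2 differences of -0.83 (SE 0.12, adjusted p = 0.00231) and -1.31 (SE 0.12, adjusted p = 0.000111). Spp1 rose instead, by 1.41 (adjusted p = 0.000739) and 1.05 (adjusted p = 0.00336) on the log2 scale. Of the 12 homeostatic genes expressed in Control, 1 rose and 4 fell in LPS and none rose and 7 fell in LPS+Pilo. That count keeps Fcrls, which was under 1 TPM in every treated library and entered the test through the Control libraries alone. The disease-associated count keeps Clec7a, which was under 1 TPM in a treated library. Choosing members by their Control level can favour falls, so no result about a list is drawn from these counts. Mertk did not pass (0.67, adjusted p = 0.192, and 0.95, adjusted p = 0.0630), and Control 2 held its widest value: without that library it passed in both comparisons, at adjusted p = 0.0286 and 0.00780.

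Of the resting receptors, the oxysterol receptor gene Gpr183 fell from 12.6, 11.8 and 11.6 TPM to 2.78, 3.08 and 2.79 TPM in LPS (log2 difference -1.74, adjusted p = 0.000165) and to 1.77, 0.920 and 1.40 TPM in LPS+Pilo (-2.47, adjusted p = 1.60e-05). Cxcr4, the receptor for CXCL12, fell by 1.91 (adjusted p = 0.000348) and by 1.35 (adjusted p = 0.00242). Csf1r passed in LPS+Pilo alone (-0.65, adjusted p = 0.00489, against -0.28, adjusted p = 0.158 in LPS), and the 2 treated groups were not compared. The costimulatory receptor gene Cd40 rose from 3.54 ± 0.897 to 27.4 ± 2.94 and 28.6 ± 2.41 TPM.

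Chemokine genes are set beside the shares of all 11260 genes tested, 4.12% higher and 3.64% lower in LPS and 4.85% and 5.30% in LPS+Pilo. Those shares are not limited to genes expressed in Control, and the list was chosen with earlier results of these data known. No excess among chemokine genes is read from the counts that follow. Of the 12 chemokine genes expressed in Control, 9 rose, 1 fell and 2 did not pass in LPS, and 8, 1 and 3 did so in LPS+Pilo. Genes already abundant at rest were among them: Ccl3 reached 4607 ± 577 and 4482 ± 218 TPM, Ccl4 1584 ± 153 and 1545 ± 15.5 TPM and Ccl2 895 ± 114 and 558 ± 61.4 TPM. Cxcl14 was the chemokine gene that fell, by 0.41 in LPS (adjusted p = 0.0229, a call that 4 of 16 other settings ended) and by 0.55 in LPS+Pilo (adjusted p = 0.00494). Tnf rose from 11.1, 13.1 and 11.5 TPM to 190 ± 10.2 TPM and 166 ± 16.1 TPM, with log2 differences of 3.90 and 3.69 (SE 0.10 for each). Mif did not pass and was at 5399 ± 190 and 5956 ± 123 TPM. Igf1 fell from 44.9 ± 3.20 TPM to 9.79 ± 1.92 TPM in LPS+Pilo (adjusted p = 5.03e-05). In LPS it was at 29.0 ± 5.15 TPM (adjusted p = 0.0488, a call that 13 of 16 other settings ended). Cfp rose to 87.7 ± 11.5 and 96.1 ± 4.17 TPM, C1qc fell to 1.08 ± 0.471 and 0.923 ± 0.362 TPM, and Acod1 rose to 339 ± 88.0 and 234 ± 23.2 TPM, each called in both comparisons.

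**Figure D5:**
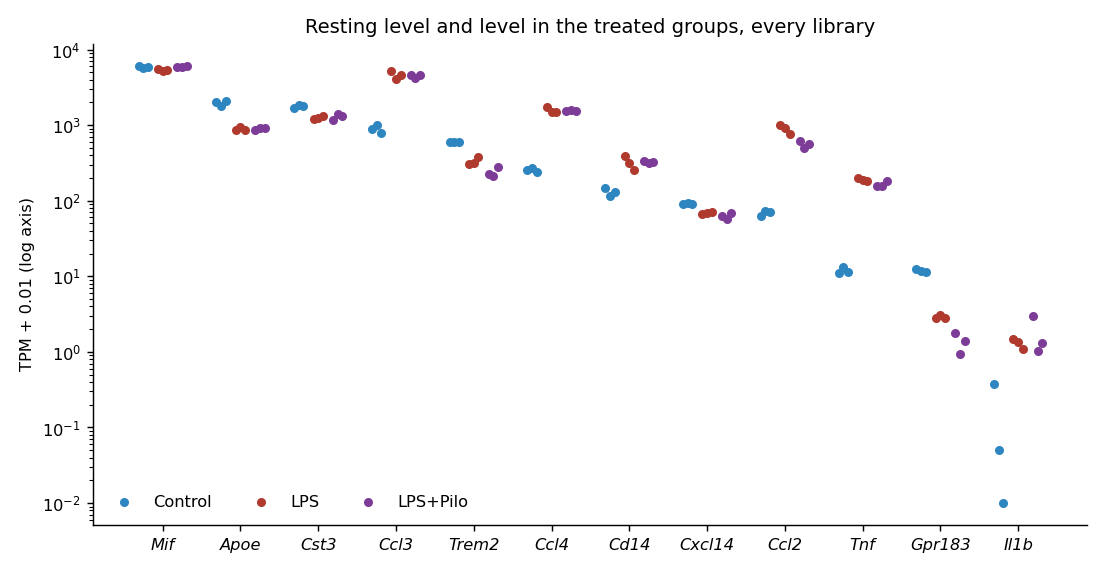
TPM + 0.01 on a log axis for 12 genes in the 3 libraries each of Control, LPS and LPS+Pilo, 1 point per library. Genes run roughly from high to low Control level, and Tnf and Gpr183 have nearly the same level. Apoe, Cst3, Trem2, Cxcl14 and Gpr183 lie lower in the treated libraries and Ccl3, Ccl4, Cd14, Ccl2 and Tnf higher, while Mif stays between 5202 and 6080 TPM.

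Most listed genes that were off at rest stayed off. Of 259 members of the lists that were under 1 TPM in every Control library, 14 reached 1 TPM in every LPS library and 18 in every LPS+Pilo library, against 64 and 90 of all 44380 such entries of the table. The 44380 include pseudogenes and non-coding entries, and the lists were chosen with earlier results of these data known. The 2 sets are therefore not alike, and no excess among the members is read from the counts. The 14 were Ccr10, Met, Clec4n, Ptgs2, Pilrb1, Ltb, Cxcr3, Cd80, Lcn2, Cxcl2, Il1b, Nos2, Il6 and Csf3, and in LPS+Pilo C2, Acta2, Ccr1 and Mmp9 joined them. These genes could enter the test through the treated groups alone, so no count of calls is drawn from them. Il1b, from 0.137 TPM, stood at 1.49, 1.35 and 1.08 TPM in LPS. Csf3, listed at 0 in every Control library, stood at 90.5, 49.8 and 38.3 TPM. In the other direction, 2 of the 262 expressed members, S1pr1 and Fcrls, were under 1 TPM in every LPS library, and Il15, Il1rl1 and Ptger1 joined them in LPS+Pilo. Of all 10282 expressed entries of the table, 48 were under 1 TPM in every LPS library and 66 in every LPS+Pilo library. Fcrls lay close to the expressed level in Control, at 1.37 TPM in its lowest library.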

How the data were processed

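Total RNA of BV2 cells was extracted with TRIzol and prepared with the Illumina TruSeq RNA kit, per the labels' protocols. The authors deposited 1 table of TPM for 55906 entries and 9 libraries, rounded to 2 decimals. The submitters' processing notes name build GRCm39, the aligner STAR 2.7.1a, fastp 0.19.5 and DESeq2 1.24.0. The sources used here do not give the TPM program, the annotation, the strand setting or the handling of reads with several matches, so paralogs, pseudogenes and overlapping or antisense genes are uncertain. TPM hold no depth, and precision is the spread between libraries. Libraries are labelled as biological replicates, but no label names separate cultures, so p-values measure that spread, which may be technical.

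Symbols were matched by Ensembl identifier to GENCODE M21 and a gene name table (52133 of 55906 entries). That annotation belongs to GRCm38, so its coordinates were not used; exonic lengths were taken from it. All 540 symbols of 28 lists were matched, 3 of them under an older name; some members are counted but not reported here by name. The members and lists were chosen with earlier results of these data known. Named genes were the 30 most abundant, list members, the 10 most variable named entries with a mean of at least 10 TPM, the 10 most abundant pseudogene or predicted entries, and those of the 100 most abundant called in LPS. The genes Aldoa, Ldha, Pkm, mt-Atp6, Klrd1, Malat1, Tmsb4x, Ppia, Cmss1 and Gphn were added after their values were seen.

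The 11260 genes that reached 1 TPM in 3 or more of 9 libraries were tested with limma 3.58.1 in R 4.3.3 on log2(TPM + 1), with 1 mean per group, all 9 libraries and a variance trend (6 residual degrees of freedom, two-sided, Benjamini-Hochberg adjusted p under 0.05). This scale understates the fold change of low genes. The script was tested on simulated data. Alternatives were other pseudocounts, thresholds, filters, scalings and designs and leaving out each library. Promoter sequences are from RefSeq, build GRCm38.p6.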

Additional observations from a re-analysis of the deposited data

How the results depend on the processing

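The number of expressed entries stayed between 9092 (at 2 TPM) and 11526 (1 TPM in any library) under all settings tried, against 10282, and was 10419 without Control 1. Of the 540 list members, 262 were expressed; 284 were at 0.5 TPM and 242 at 2 TPM, and 264, 270 and 262 were when Control 1, 2 or 3 was left out. The share held by the 100 most abundant entries, 40.1%, became 36.0% without ribosomal protein genes and 43.3% with protein-coding genes alone, the latter chosen after seeing the data. Counts of called genes moved more. With quantile normalization 1516 were called in LPS (614 higher and 902 lower) and 1726 in LPS+Pilo (736 and 990), and with the LPS and Control libraries alone 483 were. Leaving out a library gave 414 to 1020 in LPS, lowest without Control 3, and 642 to 1286 in LPS+Pilo, lowest without Control 3. Without LPS replicate 1 or 2 the LPS counts were 507 and 466, and without Control 2 the count was 552. Without LPS+Pilo replicate 1, 2 or 3 the LPS+Pilo counts were 735, 663 and 692. The split also shifted without LPS replicate 3 (688 higher and 332 lower in LPS) and, in LPS+Pilo, without Control 1 (597 higher and 421 lower). The cause of these shifts was not tested. Same-numbered libraries did not deviate together (correlations of deviations from -0.225 to 0.165), so the numbers give no pairing; with the replicate block the counts were 808 and 1064. The depth behind low values is unknown, which limits every statement about genes near or under 1 TPM.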

Other observations

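Several entries stood out for their level in untreated cells. Klrd1, which encodes the natural killer receptor chain CD94, was at 242, 489 and 476 TPM. Of the 10 lymphocyte markers listed, 1, Lck, was expressed and 1 stayed under 1 TPM. The remaining 8 were listed at 0, among them Cd3e, Nkg7 and Klrb1c. Klrd1 was at 474, 486 and 534 TPM in LPS and at 635, 646 and 732 TPM in LPS+Pilo. Cmss1 was at 1204 ± 199 TPM and Gphn, which encodes a scaffold of inhibitory synapses, at 880 ± 98 TPM. Malat1, a nuclear RNA that is abundant in many libraries, was at 2.75, 1.21 and 2.15 TPM, and the actin-sequestering gene Tmsb4x at 394 ± 25 TPM against 1983 TPM for Tmsb10. Ppia, a common reference gene, was at 1372, 2643 and 2685 TPM, and the pseudogene Gm10123 was likewise lowest in Control 1, at 1745, 3291 and 3270 TPM.

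The 10 most variable named entries with a mean of at least 10 TPM were each above 0 in a single Control library. They are Mir6236, Gm28911, Gm11572, Mir8099-1, Mir8099-2, Mir6340, Mir3473f, Snora78, Gm29362 and Gm23245, and none is protein-coding. Mir6340, for example, was at 88.5 TPM in Control 2 and listed at 0 in the other Control libraries. Mir8099-1 and Mir8099-2 held the same value, 32.5 TPM, in Control 1.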
